A study of Mus musculus with 11 samples.

Results

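ER-associated degradation (ERAD) is the route by which misfolded proteins leave the endoplasmic reticulum (ER) and are destroyed in the cytosol, and its machinery was followed here in conventional type 1 dendritic cells (cDC1s) sorted from B16 melanomas. The members were 48 gene symbols listed by function and looked up in the table of normalized expression, which held 11118 genes. Ufd1 and Ufd1l name the same gene, and the table used Ufd1l, so the list came to 47 genes, and all 47 were among the 10951 genes tested. By role they were 5 lectin and mannosidase-like proteins, 9 members of the HRD1 complex and derlin group, 4 E2 enzymes, 9 other E3 ligases and adaptors, 8 proteins of the p97 group, 8 cytosolic processing and delivery factors and 4 J-domain co-chaperones.

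Bulk RNA-seq was performed on 11 pools of tumor cDC1s, each pool made from 2 to 4 tumor-bearing mice of a single genotype. The 4 control pools carried no Cre: control replicates 1, 2 and 3 were XBP1 fl/fl and control replicate 4 was XBP1 fl/fl, IRE1 fl/fl. The 4 XBP1ΔDC pools were XBP1 fl/fl with CD11c-CRE, and the 3 XBP1ΔDC IRE1truncDC pools combined both floxed genes, XBP1 fl/fl and IRE1 fl/fl, with CD11c-CRE. Floxed Xbp1 alleles were thus common to all 3 groups, and no group was free of floxed alleles. The CD11c promoter drives Cre in all CD11c-expressing cells, not in cDC1s alone, so other dendritic cells and some macrophages of these mice lack the same genes. In pooled bulk RNA, fewer cells that express a gene and less RNA per cell cannot be told apart.

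In ERAD, lectins and mannosidase-like proteins mark a misfolded glycoprotein, a membrane ubiquitin ligase such as HRD1 receives and ubiquitinates it, and the ATPase p97 pulls it into the cytosol for the proteasome. The ER stress sensor IRE1 splices Xbp1 mRNA with its RNase domain, and the resulting factor XBP1s is known for inducing ERAD and ER folding genes. IRE1 RNase can also cut other mRNAs, a process called regulated IRE1-dependent decay, which is reported to increase in dendritic cells that lack XBP1. Comparing XBP1ΔDC cells with controls therefore asks what XBP1 loss did, and adding the truncation of IRE1 asks what was left when its RNase was lost as well. CD11c-CRE was present in every mutant pool and in no control, so an effect of Cre itself cannot be told apart from the deletions.

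Total counts were 21089065 to 26843486 reads a pool, and ERAD genes took 0.430% to 0.481% of them. The 11 cDC1 markers were all tested, and their summed level was 13100 to 14400 CPM (counts scaled to a common library size) in control pools, 11000 to 12400 in XBP1ΔDC pools and 12000 to 12800 in XBP1ΔDC IRE1truncDC pools. Naaa, an amidase, was the 1 marker called, lower in both mutants (log2 fold changes −0.51 and −0.33, edgeR adjusted p = 0.000495 and 0.0396), and without it the other 10 summed to 8930 to 10000, 8300 to 9460 and 8800 to 9480 CPM. The 6 melanoma markers summed to 8.95 to 60.2, 11.8 to 64.5 and 8.6 to 10.4 CPM in the same order, and the 5 macrophage markers to 13.7 to 27.8, 17.6 to 58.4 and 22 to 29 CPM. The 4 T cell markers measured were low. Their sum was higher in every XBP1ΔDC IRE1truncDC pool, at 1.56 to 6.95 CPM, than in any control, at 0.134 to 1.33 CPM. In XBP1ΔDC pools it was 0.65 to 1.51 CPM. Cd3e exceeded every control only in XBP1ΔDC IRE1truncDC replicate 1, at 3.55 CPM against 0.466 and 0.304 CPM in replicates 2 and 3. Cd4, which T cells do not express alone, was at 0.869 to 0.899 CPM in these pools and 0.382 to 0.905 CPM in XBP1ΔDC pools. Plasmacytoid dendritic cell markers summed to 110 to 126, 90 to 113 and 95.2 to 107 CPM in controls, XBP1ΔDC and XBP1ΔDC IRE1truncDC pools. Of these markers, Ccr9 was at 14 to 17.4 CPM in controls and lower in every mutant pool, at 2.89 to 13.4 CPM. Bst2 and Tcf4 overlapped controls in both mutants, and Siglech overlapped them in XBP1ΔDC pools only. Markers of type 2 dendritic cells summed to 23.3 to 59, 22.2 to 55 and 33.3 to 45.9 CPM in the same order. The part of these other cells in the ERAD values was not tested. Of the targeted genes, Xbp1 lay between 244 and 271 CPM in controls, 130.1 and 165 CPM in XBP1ΔDC pools, and 179 and 236 CPM in XBP1ΔDC IRE1truncDC pools. Xbp1 fell in XBP1ΔDC cells (log2 fold change −0.74 ± 0.10, edgeR adjusted p = 0.00167), whereas the lower value in XBP1ΔDC IRE1truncDC cells did not pass (−0.28 ± 0.10, edgeR adjusted p = 0.324). Ern1, which encodes IRE1, averaged 14.0 ± 3.80 CPM (SD, n = 4) in controls, 12.4 ± 2.48 CPM (n = 4) in XBP1ΔDC and 21.5 ± 4.49 CPM (n = 3) in XBP1ΔDC IRE1truncDC pools. Counts over a whole gene do not resolve deleted exons, so neither value measures the loss of the protein.

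Tumor cDC1s of control mice held RNA of every ERAD member, over a wide range of levels. CPM divided by the kilobases of exon (CPM per kb) had a median of 13.4 over the 47 genes in control pools. Herpud1, a stress-induced membrane protein that helps assemble the HRD1 complex, was highest at 226 ± 15.2 CPM per kb (SD, n = 4). Vcp, which encodes p97, followed at 77.9 ± 2.99 CPM per kb, and Os9, a lectin that delivers glycoproteins to HRD1, at 73.1 ± 6.92 CPM per kb. The means of Vcp and Os9 lay within their spread of each other, while Herpud1 was apart from both. Derl1, Edem1 and Aup1 were nearly level at 48.2 ± 3.14, 48.1 ± 3.58 and 48.1 ± 3.08 CPM per kb. At the bottom, Fam8a1, an HRD1 cofactor, was at 1.02 ± 0.161 CPM per kb, and Trim13, an ER-membrane E3 ligase, at 1.11 ± 0.317 CPM per kb. These 2 were within their spread of each other. The 3 Edem genes were spread over this order, with Edem2 at 28.8 ± 1.68 and Edem3 at 4.03 ± 0.709 CPM per kb. For 13 of the 47 genes an exon overlapped an exon of another gene, among them Aup1 with Htra2 and Syvn1 with Mrpl49 on the opposite strand, and the strand setting of the counting is not given in the sources used here.

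**Figure D1:**
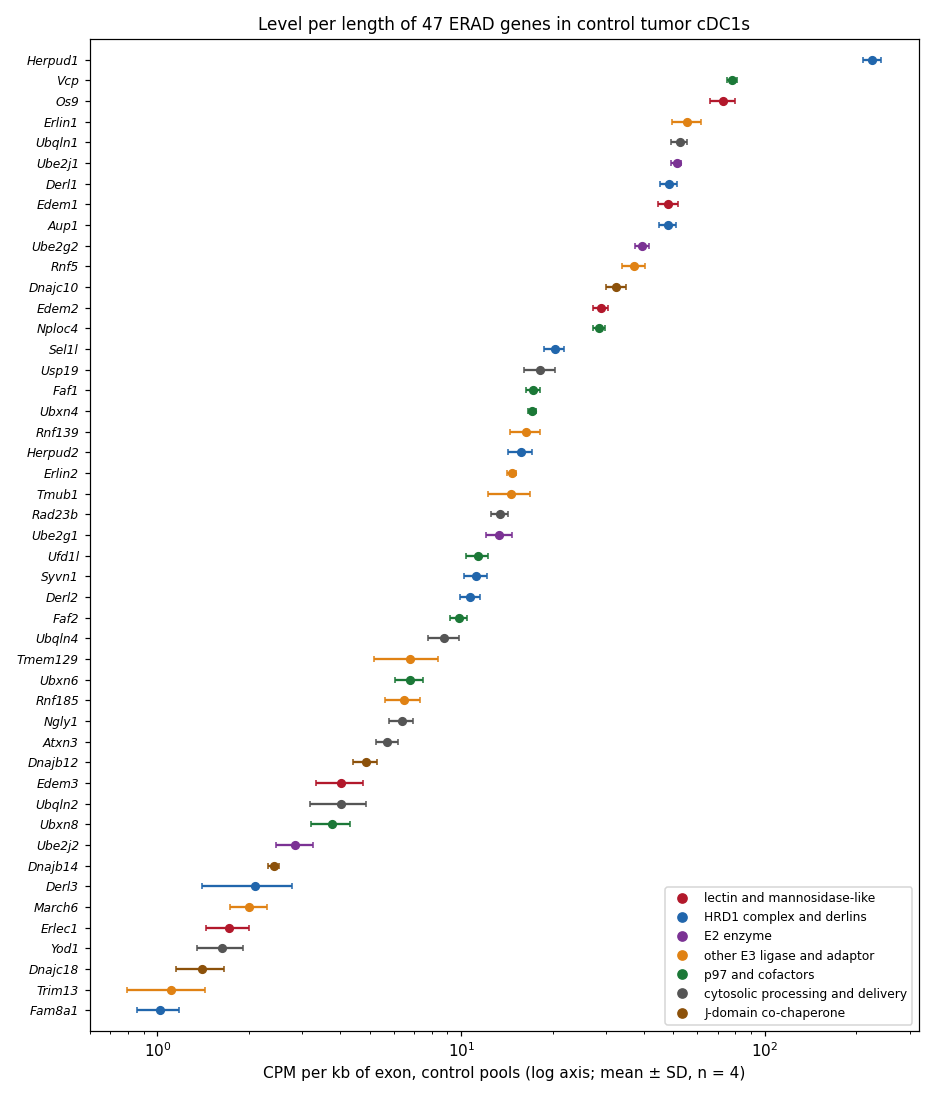
Mean level per length of each of the 47 ERAD genes in the 4 control pools, in CPM per kb of exon on a log axis, with bars of 1 SD and colors for the role. Herpud1 stands at 226 CPM per kb, Vcp and Os9 follow at 77.9 and 73.1, and Fam8a1 is lowest at 1.02.

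The upstream sequences of 5 members are shown. Herpud1 and Derl3 had higher means in mutant cells, Syvn1 encodes the ligase HRD1 itself, and Edem1 and Edem2 passed the test. Each sequence is the stretch of 170 bases before the RefSeq start of the gene, from RefSeq on GRCm38.p6. All are written 5′ to 3′ on the strand of the gene. They lie at chr8:94386259-94386428 (+) for Herpud1, chr10:75893228-75893397 (+) for Derl3, chr19:6046406-6046575 (+) for Syvn1, chr6:108828471-108828640 (+) for Edem1 and chr2:155729476-155729645 (−) for Edem2. Capitals mark matches to the ER stress response element ERSE (CCAAT, any 9 bases, then CCACG), to ERSE-II (ATTGG, any 1 base, then CCACG) or to the core TGACGTG of the unfolded protein response element, on either strand.
Herpud1: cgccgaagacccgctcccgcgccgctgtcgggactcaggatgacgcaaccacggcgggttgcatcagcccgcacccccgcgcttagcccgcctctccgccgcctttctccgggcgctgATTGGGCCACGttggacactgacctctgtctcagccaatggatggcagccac
Derl3: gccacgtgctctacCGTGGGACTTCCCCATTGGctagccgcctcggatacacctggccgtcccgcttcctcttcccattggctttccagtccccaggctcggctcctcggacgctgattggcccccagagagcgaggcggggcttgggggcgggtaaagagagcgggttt
Syvn1: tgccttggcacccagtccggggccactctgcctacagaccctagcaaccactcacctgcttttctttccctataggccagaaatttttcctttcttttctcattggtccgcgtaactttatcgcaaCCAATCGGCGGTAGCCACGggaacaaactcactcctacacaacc
Edem1: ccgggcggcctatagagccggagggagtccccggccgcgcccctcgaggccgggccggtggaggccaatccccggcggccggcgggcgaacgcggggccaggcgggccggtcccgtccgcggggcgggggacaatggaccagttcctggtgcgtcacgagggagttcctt
Edem2: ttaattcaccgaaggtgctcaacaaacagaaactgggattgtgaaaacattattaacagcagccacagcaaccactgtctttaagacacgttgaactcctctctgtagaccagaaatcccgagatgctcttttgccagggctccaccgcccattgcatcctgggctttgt

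In windows of 300 bases, from 250 before to 50 after the start, promoters were found for 36 of the 47 members. ERSE was present in Derl3, reversed, at positions −156 to −138 from the start, and in Syvn1 at −44 to −26. Among all 27025 genes with a promoter, 37 held it (0.137%). ERSE-II was present in Herpud1 at −52 to −42, against 12 of all genes (0.0444%). The TGACGTG core was found in Atxn3, Ube2j1 and Vcp, against 601 of all genes (2.22%). The capitals in the sequences above are the ERSE-II of Herpud1 and the ERSE of Derl3 and Syvn1, while the windows of Edem1 and Edem2 held none of these letters. A match of letters is a description and no measurement of binding.

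The members that fell in XBP1ΔDC cells belonged to the mannosidase-like EDEM genes. Edem1 and Edem2, which encode ER proteins that promote mannose trimming and hand glycoproteins to degradation, fell to 0.786 and 0.746 of their control level. These were the only 2 of the 47 members lower at an adjusted p under 0.05, where 0.858% of all 10951 genes were lower. Neither reached a 1.5-fold change. No member was higher at that threshold, where 0.0365% of all genes were higher. At an unadjusted p under 0.05, 5 members were lower (Edem2, Edem1, Edem3, Ube2g2 and Derl1) against 4.95% of all genes, and 2 were higher (Derl3 and Erlin2) against 2.67% of all genes. Over the whole list, values lay around 0: 26 of 47 members (55.3%) had lower means against 48.8% of all genes, and their median log2 fold change was −0.02 against 0.00 over all genes tested.

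Edem2 was at 101, 93.5, 97.7 and 107 CPM in controls, in replicate order as for the genes that follow, at 71.4, 74.6, 82.0 and 69.6 CPM in the XBP1ΔDC pools, and at 74.4, 76.1 and 74.6 CPM in the XBP1ΔDC IRE1truncDC pools. All 7 mutant pools were below all controls, and the mutant groups overlapped each other. In XBP1ΔDC cells Edem2 fell by 0.42 ± 0.08 on the log2 scale (standard error, edgeR adjusted p = 0.0172). In XBP1ΔDC IRE1truncDC cells the fitted difference from control was nearly the same, −0.41 ± 0.08, but its edgeR adjusted p was 0.0556. Between the mutants it was 0.01 ± 0.08, with a 95% interval of −0.16 to 0.19.

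Edem1, one of the genes the study listed from the literature as an XBP1s target, was at 299, 284, 336 and 323 CPM in controls, at 245, 233, 245 and 252 CPM in XBP1ΔDC pools, and at 270, 304 and 279 CPM in XBP1ΔDC IRE1truncDC pools. The XBP1ΔDC pools were below every pool of both other groups, and the XBP1ΔDC IRE1truncDC pools overlapped the controls. Edem1 fell by 0.35 ± 0.07 on the log2 scale in XBP1ΔDC cells (edgeR adjusted p = 0.0407). Against control the XBP1ΔDC IRE1truncDC value was −0.13 ± 0.08 (edgeR adjusted p = 0.608), and against XBP1ΔDC it was 0.22 ± 0.08 (edgeR adjusted p = 0.737). A difference between the mutants in Edem1 was therefore not established by these pools.

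Edem3, the third EDEM gene, was sparser, at 26.8, 20.4, 24.5 and 31.2 CPM in controls, at 17.0, 20.7, 13.7 and 17.5 CPM in XBP1ΔDC pools and at 15.1, 20.6 and 16.8 CPM in XBP1ΔDC IRE1truncDC pools. In each mutant group 1 pool reached the range of the controls. Its fitted differences were the largest of the EDEM genes, −0.58 ± 0.16 and −0.56 ± 0.18 against control, with edgeR adjusted p of 0.225 and 0.268. The lectins that receive the trimmed glycans, Os9 and Erlec1, gave −0.10 and −0.07 in XBP1ΔDC cells and 0.03 and −0.09 in XBP1ΔDC IRE1truncDC cells, none past the test. All 5 members of the lectin and mannosidase-like group thus had lower means in XBP1ΔDC cells, against 48.8% of all genes. Of the 5, 2 passed the test, where 0.858% of all genes were called lower. The group median of −0.35 on the log2 scale was the value of Edem1. In these cells Os9 (−0.10 ± 0.11) and Erlec1 (−0.07 ± 0.26) lay within their standard errors of 0, so a fall of the whole group was not shown. In XBP1ΔDC IRE1truncDC cells 4 of the 5 had lower means, against 50.6% of all genes. There the group median was −0.13, and 0 passed, where 0.292% of all genes were called lower.

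The calls on Edem1 and Edem2 depended on the pools and the fit. Neither gene was called with library size scaling or a replicate block, or in an edgeR fit without control replicate 1, control replicate 4, or XBP1ΔDC replicate 1, 2 or 4, and Edem2 alone was called without control replicate 3, XBP1ΔDC replicate 3, or XBP1ΔDC IRE1truncDC replicate 1 or 3.

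**Figure D2:**
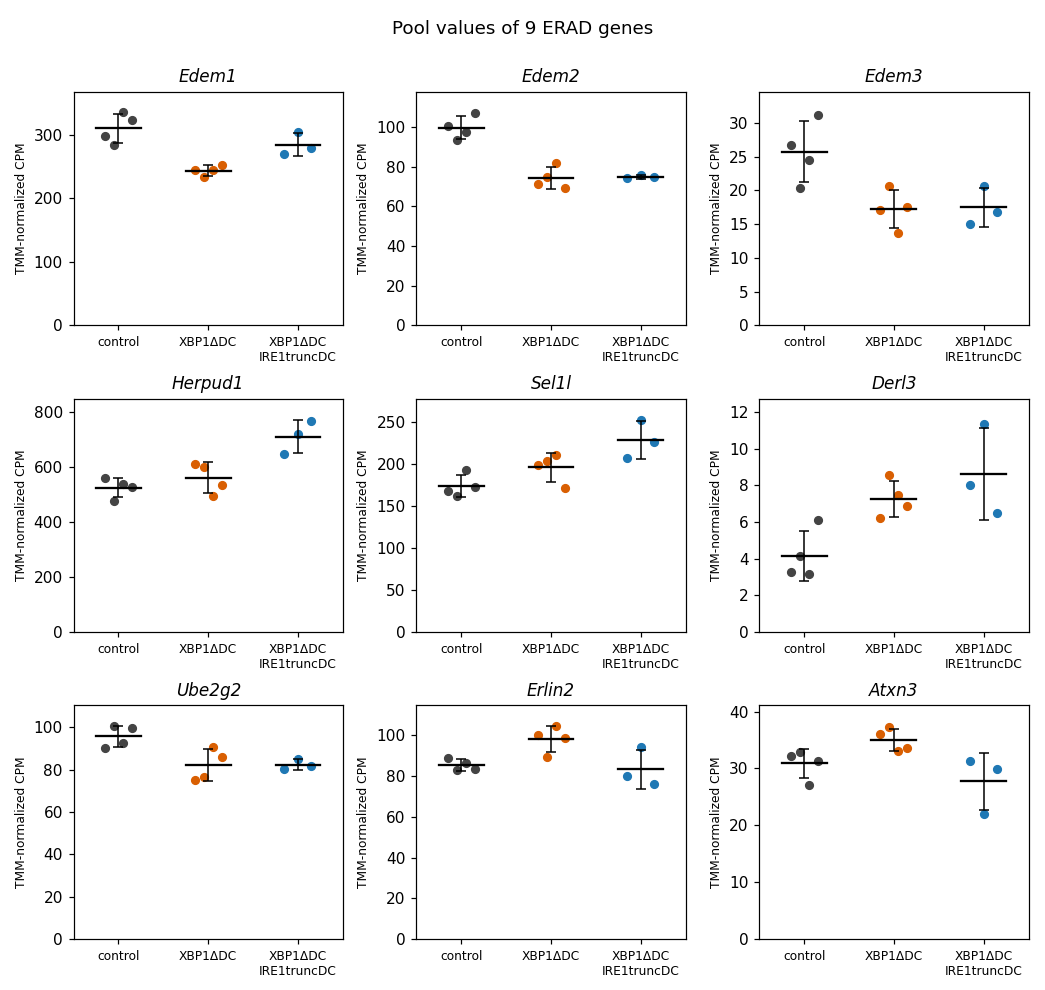
Level of 9 ERAD genes in every pool, in CPM after TMM scaling from 0, with points for pools, horizontal lines for group means and bars of 1 SD (n = 4, 4 and 3). All mutant pools of Edem2 lie below all controls, the XBP1ΔDC pools of Edem1 lie below both other groups, and the XBP1ΔDC IRE1truncDC pools of Herpud1 lie above both other groups.

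The HRD1 complex receives and ubiquitinates substrates at the ER membrane, and the derlins form part of its channel. Of these 9 members, 0 were called in any of the 3 comparisons by edgeR with adjustment. Against control, 0.858% of all genes were called lower and 0.0365% higher in XBP1ΔDC cells. In XBP1ΔDC IRE1truncDC cells these shares were 0.292% and 0.0639%, and between the mutants 0% and 0.0731%. A count of 0 in 9 genes is near these shares. At an unadjusted p under 0.05 XBP1ΔDC cells had 1 lower (Derl1) and 1 higher (Derl3), where 4.95% of all genes were lower and 2.67% higher. In XBP1ΔDC IRE1truncDC cells 3 were higher than in control at that unadjusted level (Herpud1, Sel1l and Derl3) and 0 were lower, where 5.73% and 5.44% of all genes were. DESeq2 called these 3 genes in that comparison, with DESeq2 adjusted p of 0.00282, 0.0162 and 0.0269, where it called 0.789% of all genes higher.

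Herpud1 was at 562, 478, 540 and 528 CPM in controls, at 614, 603, 495 and 537 CPM in XBP1ΔDC pools, and at 648, 721 and 768 CPM in XBP1ΔDC IRE1truncDC pools. The XBP1ΔDC IRE1truncDC pools were above all pools of both other groups, which overlapped each other. Its log2 fold change was 0.44 ± 0.09 between XBP1ΔDC IRE1truncDC and control cells (edgeR adjusted p = 0.0736), 0.34 ± 0.09 between XBP1ΔDC IRE1truncDC and XBP1ΔDC cells (edgeR adjusted p = 0.431), and 0.09 ± 0.09 between XBP1ΔDC and control cells (edgeR adjusted p = 0.927).

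Sel1l encodes the adaptor that links lectins to HRD1 and stabilizes the ligase. It was at 168, 162, 193 and 173 CPM in controls, at 199, 203, 211 and 172 CPM in XBP1ΔDC pools and at 207, 253 and 226 CPM in XBP1ΔDC IRE1truncDC pools. The XBP1ΔDC IRE1truncDC pools were above all controls and overlapped the XBP1ΔDC pools, of which 3 were above all controls. The log2 fold change against control was 0.39 ± 0.10 in XBP1ΔDC IRE1truncDC cells (edgeR adjusted p = 0.127) and 0.17 ± 0.09 in XBP1ΔDC cells (edgeR adjusted p = 0.734).

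Derl3, a derlin of the retrotranslocation channel that is best known from secretory cells, was at 3.26, 4.15, 3.15 and 6.12 CPM in controls, at 6.21, 8.55, 7.46 and 6.87 CPM in XBP1ΔDC pools and at 8.01, 11.4 and 6.48 CPM in XBP1ΔDC IRE1truncDC pools. Every mutant pool was above every control, though control replicate 4 and XBP1ΔDC replicate 1 nearly met. Only 76 to 244 reads a pool stood behind these values, and the log2 fold changes of 0.80 ± 0.26 and 1.05 ± 0.28 had edgeR adjusted p of 0.350 and 0.170. Of the markers of plasma cells, a cell type known for Derl3, Jchain was at 0 in every pool. All 5 plasma cell markers summed to 1.61 to 5.97 CPM in controls and 1.36 to 7.86 CPM in XBP1ΔDC pools. In XBP1ΔDC IRE1truncDC pools they summed to 3.07 to 9.64 CPM. Most of this was Prdm1, which other immune cells also express. Without Prdm1, the 4 remaining markers summed to at most 1.91 CPM in controls, at most 1.12 CPM in XBP1ΔDC pools and 0 in all XBP1ΔDC IRE1truncDC pools. The part of plasma cells in the Derl3 values was not tested.

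The ligase gene itself, Syvn1, averaged 54.4 ± 4.88 CPM in controls, 48.3 ± 6.17 CPM in XBP1ΔDC and 54.5 ± 2.32 CPM in XBP1ΔDC IRE1truncDC pools, and it did not pass in either mutant (log2 fold changes −0.17 and 0.00, edgeR adjusted p = 0.803 and 0.996). Syvn1 and Derl3 both hold an ERSE. Neither passed in XBP1ΔDC cells, and a link between the motif and the levels was not tested. Derl1, a channel subunit, was at −0.23 in XBP1ΔDC and −0.19 in XBP1ΔDC IRE1truncDC cells (edgeR adjusted p = 0.495 and 0.477). Derl2, Herpud2, the lipid droplet and ERAD factor Aup1 and the sparse Fam8a1 were past no threshold in any comparison.

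Among the 4 E2 enzymes, which carry ubiquitin to the ligases, Ube2g2 was lower at the unadjusted level. It was at 90.2, 100.4, 92.3 and 99.6 CPM in controls, at 75.1, 76.6, 90.8 and 85.9 CPM in XBP1ΔDC pools and at 80.1, 85.2 and 81.8 CPM in XBP1ΔDC IRE1truncDC pools. All mutant pools except XBP1ΔDC replicate 3 were below all controls, and the log2 fold changes were −0.22 ± 0.08 and −0.22 ± 0.09, with edgeR adjusted p of 0.465 and 0.365. Ube2j1, the main partner of HRD1, Ube2j2 and Ube2g1 had log2 fold changes within −0.08 to 0.13 against control in both mutants.

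Of the 9 other E3 ligases and adaptors, Erlin2 differed at the unadjusted level. Erlin2 builds, with Erlin1, a membrane complex that brings inositol trisphosphate receptors to degradation. It was at 89.0, 83.2, 86.6 and 83.3 CPM in controls, at 100.4, 89.6, 105 and 98.8 CPM in XBP1ΔDC pools and at 80.0, 94.2 and 75.9 CPM in XBP1ΔDC IRE1truncDC pools. All XBP1ΔDC pools were above all controls, and XBP1ΔDC IRE1truncDC replicate 2 reached into the XBP1ΔDC range. The log2 fold change was 0.20 ± 0.08 in XBP1ΔDC against control and −0.24 ± 0.09 between the mutants (edgeR adjusted p = 0.571 and 0.830). The ligases March6, Rnf5, Rnf185, Rnf139, Trim13 and Tmem129, the ligase adaptor Tmub1 and Erlin1 passed no threshold in any comparison, and Trim13, with 25 to 86 reads a pool, had the widest interval between the mutants, −1.73 to 0.31.

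The ATPase p97 and its cofactors carry out the extraction step. Of these 8 members, 0 passed the adjusted test in any comparison. In any comparison and direction at most 0.858% of all genes passed, so a count of 0 in 8 genes is near that share. Vcp averaged 378 ± 14.5 CPM in controls, 353 ± 15.2 CPM in XBP1ΔDC and 387 ± 25.8 CPM in XBP1ΔDC IRE1truncDC pools, with log2 fold changes of −0.10 and 0.03 against control and 95% intervals of −0.24 to 0.04 and −0.12 to 0.19. Its substrate-binding partners Nploc4 and Ufd1l and the UBX-domain recruiters Faf1, Faf2, Ubxn4, Ubxn6 and Ubxn8 lay within −0.07 to 0.16 in XBP1ΔDC cells. Only Ubxn6 passed the unadjusted threshold, in XBP1ΔDC IRE1truncDC cells (0.25, edgeR adjusted p = 0.439). Ubxn4, another gene of the study's XBP1s target list, gave −0.07 and −0.10 against control in the 2 mutants.

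Of the 8 cytosolic factors, Atxn3, a deubiquitinase that binds p97, was at 32.2, 33.0, 27.1 and 31.3 CPM in controls, at 36.0, 37.3, 33.1 and 33.7 CPM in XBP1ΔDC pools and at 31.3, 22.0 and 29.9 CPM in XBP1ΔDC IRE1truncDC pools. All XBP1ΔDC pools were above all pools of the other groups, the nearest control by a small margin, and the difference between the mutants was −0.34 ± 0.13 (edgeR adjusted p = 0.887). The deglycosylating enzyme Ngly1, the proteasome shuttles Rad23b, Ubqln1, Ubqln2 and Ubqln4, and the deubiquitinases Yod1 and Usp19 passed no threshold. Nor did the J-domain co-chaperones Dnajc10, an ER disulfide reductase that works with EDEM proteins, Dnajb12, Dnajb14 and Dnajc18.

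In XBP1ΔDC IRE1truncDC cells against control, edgeR called 0 of the 47 members lower, where 0.292% of all genes were lower, and 0 higher, where 0.0639% were higher. DESeq2 called 4 (Edem2 lower and Herpud1, Sel1l and Derl3 higher), where DESeq2 called 1.1% of all genes lower and 0.789% higher, and limma voom called 0. At an unadjusted p under 0.05 in edgeR, 3 members were lower (Edem2, Edem3 and Ube2g2) against 5.44% of all genes, and 4 were higher (Herpud1, Sel1l, Derl3 and Ubxn6) against 5.73%. Means were lower for 25 of 47 members (53.2%, against 50.6% of all genes), with medians of −0.01 for the members and 0.00 for all genes.

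Between the 2 mutants, edgeR called 0 members lower, where 0% of all genes were lower, and 0 higher, where 0.0731% were higher, and DESeq2, which called 0.128% of all genes lower and 0.411% higher, and limma voom also called 0 members. At an unadjusted p under 0.05, 2 members were lower in XBP1ΔDC IRE1truncDC than in XBP1ΔDC cells (Erlin2 and Atxn3) against 2.5% of all genes, and 3 were higher (Herpud1, Edem1 and Sel1l) against 2.79%. Means were lower for 18 of 47 members (38.3%, against 49.6% of all genes), and the median log2 fold change was 0.06 for the members and 0.00 for all genes. The 2 comparisons with control share the same 4 control pools, so their values stand side by side and are not independent.

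The data were precise enough to bound most members. The 95% interval of the log2 fold change lay inside a 1.5-fold change in both directions for 37 of 47 members between XBP1ΔDC and control, for 36 between XBP1ΔDC IRE1truncDC and control, and for 38 between the mutants. The members outside it were Edem2, Edem3, Derl3 and mostly sparse genes such as Erlec1, Trim13, Fam8a1, Dnajc18 and Tmem129 in the first comparison, joined by Herpud1 and Sel1l in the second.

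**Figure D3:**
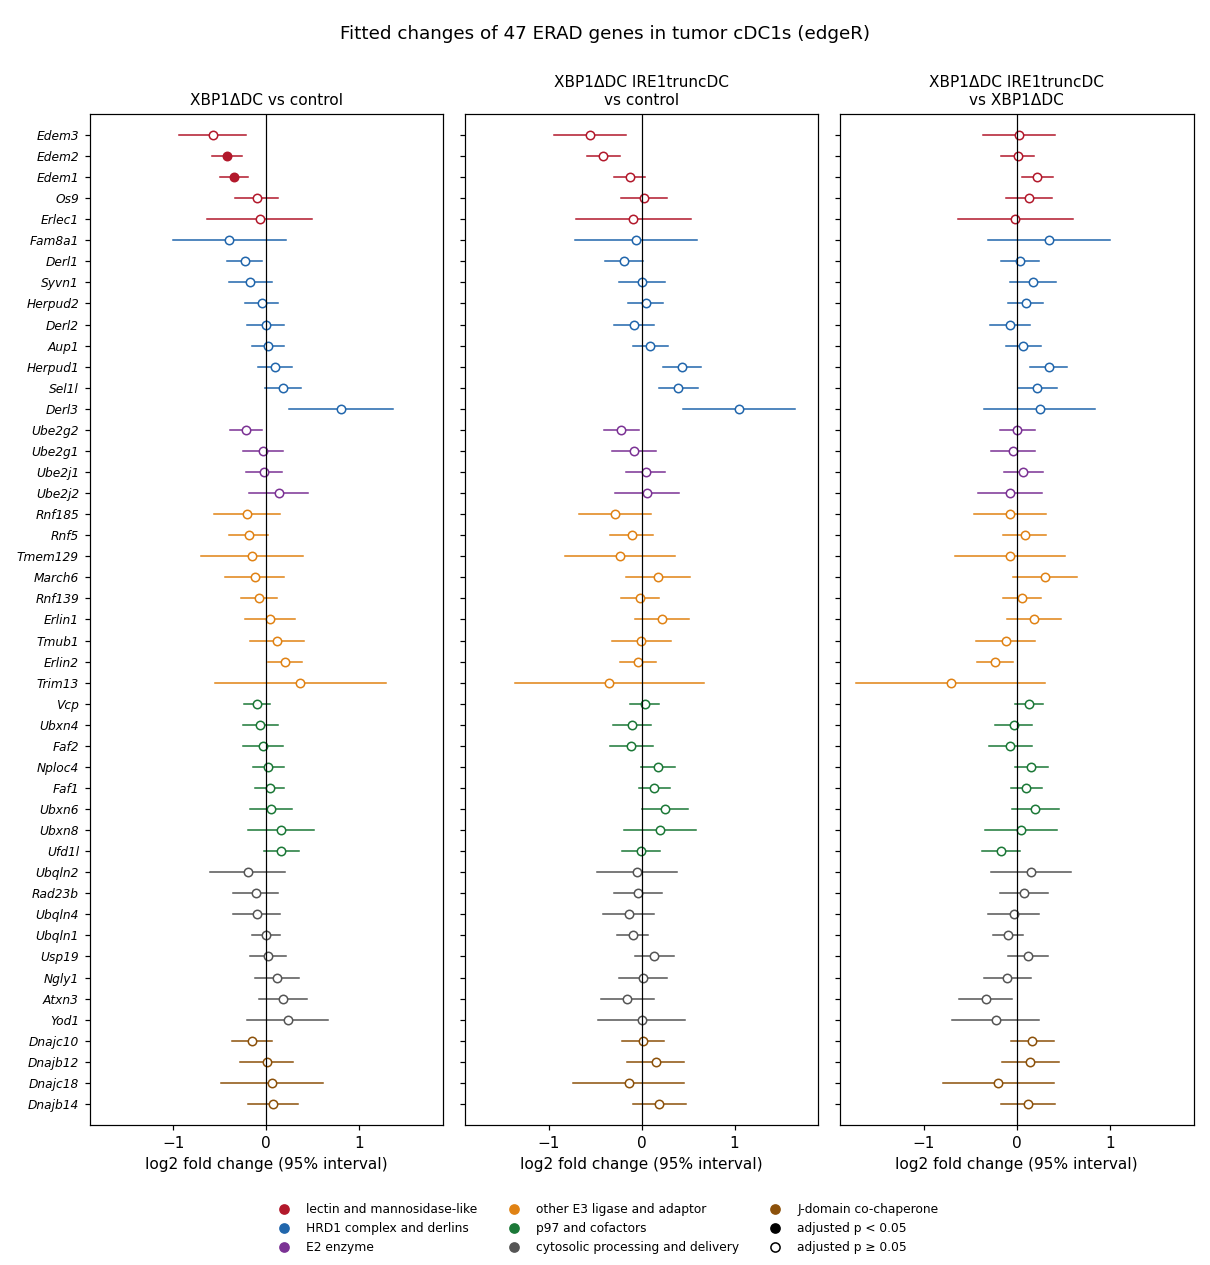
Log2 fold change with its 95% interval (edgeR) for the 47 ERAD genes in the 3 comparisons, grouped by role and colored accordingly, with filled points for an adjusted p under 0.05. Edem2 at −0.42 and Edem1 at −0.35 in XBP1ΔDC against control are the only filled points, Derl3 is highest in the 2 comparisons with control at 0.80 and 1.05, and the p97 group stays near 0.

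Genes that work beside this machinery were followed as well. The lists of other ERAD genes and of the glycan cycle were chosen with earlier results of these data known. Shares of these lists are therefore a description and no test. From a list of 33 other ERAD genes, 29 were tested. At an adjusted p under 0.05, 3 fell in XBP1ΔDC cells while 0 rose, where 0.858% of all genes were lower and 0.0365% higher. Means were lower for 19 of the 29 (65.5%, against 48.8% of all genes), with a median of −0.06. In XBP1ΔDC IRE1truncDC cells 1 was called lower and 0 higher, against 0.292% and 0.0639% of all genes. Dnajb9, an ER co-chaperone of the J-domain family, fell from 27.4 to 30.8 CPM in controls to 9.42 to 16.0 CPM in XBP1ΔDC pools (log2 fold change −1.17 ± 0.17, edgeR adjusted p = 0.00427) and lay at 11.7 to 17.0 CPM in XBP1ΔDC IRE1truncDC pools (−0.95 ± 0.19, edgeR adjusted p = 0.0556). Sec61b, a subunit of the translocation channel, was at 88.8 to 101.7 CPM in controls, 48.2 to 59.4 CPM in XBP1ΔDC pools and 54.4 to 55.9 CPM in XBP1ΔDC IRE1truncDC pools. It fell in both mutants (−0.81 ± 0.08 and −0.81 ± 0.09, edgeR adjusted p = 0.000381 and 0.00307). Vimp, which encodes a selenoprotein that recruits p97 to the derlins, fell in XBP1ΔDC cells from 123 ± 3.16 to 88.4 ± 4.96 CPM (−0.48 ± 0.09, edgeR adjusted p = 0.0276). In XBP1ΔDC IRE1truncDC pools it was at 84.9 to 114 CPM, also below all controls, and did not pass (−0.36 ± 0.10, edgeR adjusted p = 0.185). Dnajb9 and Sec61b are also in the study's XBP1s target list.

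In the glycan cycle that precedes ERAD, in which glucose is trimmed and re-added while calnexin and calreticulin assist folding, 13 of 15 listed genes were tested. Mlec, an ER lectin that binds diglucosylated glycans and is also in the study's list of IRE1 decay targets, fell in XBP1ΔDC cells (−0.64 ± 0.08, edgeR adjusted p = 0.00101), from 433 to 514 CPM in controls to 273 to 328 CPM. It lay between those groups, at 375 to 395 CPM, in XBP1ΔDC IRE1truncDC pools, where the difference from control was −0.31 ± 0.08 (edgeR adjusted p = 0.170) and that from XBP1ΔDC was 0.33 ± 0.08 (edgeR adjusted p = 0.321). Of the 13 genes, 11 (84.6%) had lower means in XBP1ΔDC cells against 48.8% of all genes, with a median of −0.20. Past the adjusted threshold 1 was lower, against 0.858% of all genes, and past the unadjusted one 5 were lower, against 4.95%. In the same comparison the medians of the HRD1, p97 and cytosolic groups were −0.01, 0.03 and 0.01. Those of the E2 enzymes, the other E3 ligases and adaptors and the J-domain co-chaperones were −0.03, −0.08 and 0.03. The lectin and mannosidase-like group had −0.35. In XBP1ΔDC IRE1truncDC cells 8 of the 13 glycan genes (61.5%) had lower means than control, against 50.6% of all genes, with a median of −0.15. At an unadjusted p under 0.05, 4 were lower and 2 higher (Calr and Pdia3), against 5.44% and 5.73% of all genes. Between the mutants 3 (23.1%) had lower means, against 49.6% of all genes.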

How the data were processed

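Tumor cDC1s were sorted from pooled mice, and RNA was amplified with SMART-seq before single-end sequencing. Raw counts per gene were deposited by the authors after trimming (Trimmomatic 0.39), quality control (FastQC 0.11.8), alignment to mm10 (STAR 2.7.3a) and counting with HTSeq. The deposited normalized table holds log2 CPM with TMM scaling by limma 3.42.2, and by its values it keeps genes above 1 CPM in at least 3 pools. It served only to find the members. Here raw counts were fitted for genes that exceeded 1 CPM in 4 or more pools, with edgeR 4.0.16 in R 4.3.3 (TMM, quasi-likelihood test, all 11 pools in 1 fit, 3 genotype groups, 3 comparisons). Errors of fold changes are standard errors, and p-values were adjusted by Benjamini-Hochberg over all 10951 genes. CPM values are TMM-scaled. Levels per length used GENCODE exons on GRCm38. The script was tested on simulated data. All 47 members were named, with pool values for those with an adjusted p under 0.05 or among the 5 smallest p in a comparison. Members and lists were chosen with earlier results of these data known. Alternatives were DESeq2 1.42.0, limma voom 3.58.1, other scalings and filters, fits of only the 2 groups compared, a replicate block and leaving out each pool. The fit treated pools as independent, and the sources used here do not say which were sorted or processed together. Pools differed by more than counting noise within groups (chi-square per degree of freedom 21.2 to 67.2).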

Additional observations from a re-analysis of the deposited data

How the results depend on the processing

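In XBP1ΔDC against control, the 2 calls (Edem1 and Edem2) were also made by DESeq2, limma voom, RLE size factors and a filter of 1 CPM in 3 pools. The count was 0 with library size scaling, 0 with the replicate block, 0 when a 1.5-fold change was required as well, 1 without a filter beyond 1 read and 1 when only the 2 groups compared were fitted, and it ranged from 0 to 2 when each pool was left out in turn. Over the 19 alternative settings run for each gene, the log2 fold change was −0.47 to −0.39 for Edem2 and −0.39 to −0.31 for Edem1. Edem2 had an adjusted p of 9.81e-05 to 0.0867 and was called in 12, and Edem1 had 0.00108 to 0.151 and was called in 6. In XBP1ΔDC IRE1truncDC against control, the count of 0 became 4 with DESeq2 (Edem2, Sel1l, Derl3 and Herpud1) and 1 with library size scaling (Herpud1), and between the mutants it was 0 in every setting run. Over all genes DESeq2 called 163 lower and 18 higher, 116 and 83, and 14 and 45 in the 3 comparisons, against 94 and 4, 32 and 7, and 0 and 8 in edgeR. Of 285 values of named members under these settings, 260 kept direction and side of the threshold, 20 lost it, 5 gained it and 0 reversed. All 20 losses were of Edem1 and Edem2 in XBP1ΔDC against control, the only calls among the 15 named pairs of member and comparison. The other pairs were not called to begin with. Members were named mainly for the smallest p in these data, so a kept direction was likely beforehand and is no support. Pools with the same number deviated together weakly or not at all (r of 0.04 to 0.13, −0.02 to 0.03 and −0.26 to −0.14 in the 3 comparisons). In the same order, 3 of 8, 1 of 6 and 0 of 6 pools matched their own number best. With different numbers, r was −0.20 to 0.25, −0.15 to 0.17 and −0.09 to 0.31. The melanoma marker Dct was at 4.74, 4.11, 21.5 and 33.4 CPM in controls and 4.84, 5.12, 12.4 and 34.9 CPM in XBP1ΔDC pools. In XBP1ΔDC IRE1truncDC pools it was at 1.76, 2.65 and 4.3 CPM. The replicate block pairs numbers, and a batch that spans several numbers was not tested. Precision was lowest in the sparsest genes: the 95% interval of Trim13 between XBP1ΔDC and control ran from −0.56 to 1.29 on the log2 scale.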
